A study of Mus musculus with 4 samples.

Results

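The 9 genes described here, Sst, Vip, Npy, Cck, Tac1, Crh, Pnoc, Penk and Cort, encode neuropeptides used by forebrain interneurons, and were taken as a list by name out of 21911 protein-coding genes. Open chromatin at these genes was compared between cortex and hippocampus and between nuclei. All mice were Dlx6aCre;Sun1/sfGFP animals at postnatal day 30. Dlx6aCre drives recombination in forebrain inhibitory neurons and their precursors, so that the nuclear envelope of these cells carries GFP, and GFP-positive nuclei were sorted before the 10x Genomics single-nucleus ATAC assay. Each brain region had 2 libraries, and the labels do not say whether they came from different animals, so p-values measure only the spread between libraries.

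Neuropeptides are made as large precursors, cut by convertases and stored in dense-core vesicles, from which they act on G protein-coupled receptors. In cortex and hippocampus they mark kinds of GABAergic neuron that also release GABA. Sst and Tac1 are typical of interneurons born in the medial ganglionic eminence (MGE), where Tac1 often accompanies Pvalb. Vip and Cck are typical of interneurons from the caudal ganglionic eminence (CGE), and Npy is found in neurogliaform cells as well as in some Sst cells.

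Values are cut sites, the positions where the transposase inserted, counted in the peaks of each library and scaled to 1000000 cut sites in all its peaks (CPM). Peaks overlapping the gene body and peaks within 50 kb on either side were summed apart. The libraries held 2355 to 5576 nuclei and 32005984 to 117290059 cut sites, and cortex replicate 1 was the deepest, with a median of 47236 cut sites per nucleus against 7352 to 14917 in the others. Because peaks had been called in each library by itself, the covered length differed, with 33.4 Mb of peaks in cortex replicate 2 and 62.1 to 101 Mb in the others. A gene without a peak has no value here, which does not show closed chromatin. All 8 pan-GABA marker genes had peaks in every library. Clusters low in these markers made up 4.42% and 4.61% of nuclei in cortex and 12.7% and 12.3% in hippocampus, and libraries shared 11 to 47 cell barcodes in pairs.

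Sequence upstream of the start was in the RefSeq table (GRCm38.p6) for 6 of the 9 genes, Sst, Vip, Npy, Cck, Tac1 and Cort, and the entry was missing for Crh, Pnoc and Penk. The sequences are shown because the peaks over them separate the genes. All 250 upstream bases lay in a peak of every library at Sst, Npy and Cort. At Vip, 210 and 45 of the bases lay in a peak of cortex replicates 1 and 2 and 0 in either hippocampus library, and at Tac1 250 and 125 in cortex replicate 1 and hippocampus replicate 1 and 0 in the other two. At Cck the covered length was 165 bases in cortex replicate 2 and 250 in the others. Capitals mark TGACG or its reverse complement CGTCA, the core of the cyclic AMP response element. It was found in 5 of the 6 sequences, against 17.8% of 32851 upstream sequences of the same length, and Npy had no match. Sst held the full palindrome TGACGTCA, which 1.55% of upstream sequences hold and in which a match on each strand overlaps the other. TATAAA, sought on both strands, was in 1 of the 6, Vip, and in 12.4% of all. A match describes letters in the window, not bound protein. For Sst and Tac1 only 30 bases around the match nearest to the start are given, since annotated exons reach into their windows.
Sst, chr16:23890874-23890903, minus strand: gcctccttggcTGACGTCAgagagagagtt
Tac1, chr6:7555007-7555036, plus strand: ctctacaggctCGTCAcgcctgagataaat
Vip, chr10:5638968-5639217, plus strand: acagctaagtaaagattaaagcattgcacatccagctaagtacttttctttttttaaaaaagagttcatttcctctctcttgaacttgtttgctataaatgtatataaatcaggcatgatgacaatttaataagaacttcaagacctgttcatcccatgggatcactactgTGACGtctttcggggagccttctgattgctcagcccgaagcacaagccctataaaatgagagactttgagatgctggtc
Cort, chr4:149126764-149127013, minus strand: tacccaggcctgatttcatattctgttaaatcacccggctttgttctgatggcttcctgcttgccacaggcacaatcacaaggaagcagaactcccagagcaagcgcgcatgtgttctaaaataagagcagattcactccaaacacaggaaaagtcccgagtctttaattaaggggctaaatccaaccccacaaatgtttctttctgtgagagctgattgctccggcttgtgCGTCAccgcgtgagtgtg
Cck, chr9:121495695-121495944, minus strand: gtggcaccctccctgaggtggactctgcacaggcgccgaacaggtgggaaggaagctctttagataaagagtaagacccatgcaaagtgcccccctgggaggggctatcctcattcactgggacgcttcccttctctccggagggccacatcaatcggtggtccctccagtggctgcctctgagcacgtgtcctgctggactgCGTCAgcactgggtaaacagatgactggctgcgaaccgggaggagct
Npy, chr6:49822460-49822709, plus strand: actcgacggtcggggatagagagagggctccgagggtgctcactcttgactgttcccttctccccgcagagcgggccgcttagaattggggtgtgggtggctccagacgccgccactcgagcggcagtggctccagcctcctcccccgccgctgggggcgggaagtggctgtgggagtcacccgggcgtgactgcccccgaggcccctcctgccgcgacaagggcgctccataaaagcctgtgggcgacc

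Between cortex and hippocampus no peptide gene passed the test, and 3 of the 6 gene bodies with a peak in every library had groups that did not overlap. Sst and Cort were higher in the cortex libraries and Pnoc in the hippocampus libraries. Per kb of peak the groups overlapped at each of these genes. Over 14511 gene bodies with counts in every library, 12.3% lay above in cortex and 9.28% in hippocampus without overlap. In edgeR's quasi-likelihood test with Benjamini-Hochberg adjustment, 0 of the 9 gene bodies were called at an adjusted p of 0.05, beside 0.0437% of 16024 gene bodies tested, and 0 of the 9 had an unadjusted p under 0.05. For Vip, Tac1 and Penk the test took libraries without a peak as counts of 0, so only the 6 other genes had a measured value in every library. DESeq2 called 1 of the 9, Pnoc, beside 0.992% of all.

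Sst, which encodes somatostatin, an inhibitory peptide of dendrite-targeting interneurons, lies on chromosome 16 (23889573 to 23890958, GRCm38, minus strand). Its gene body had 22.2 and 10.9 CPM in cortex replicates 1 and 2 and 8.37 and 7.55 CPM in hippocampus replicates 1 and 2. Both cortex libraries lay above both hippocampus libraries, but the cortex libraries differed more from each other than the lower of them from hippocampus. The means were 16.6 ± 7.95 CPM in cortex and 7.96 ± 0.58 CPM in hippocampus (SD, n = 2 each). The log2 fold change of hippocampus over cortex was -1.05 ± 0.65 (SE), with an unadjusted p of 0.107 and an adjusted p of 1.0 in edgeR. The peak over the gene was 2983 bp long in cortex replicate 1 and 463 to 744 bp in the others, and with covered length as an offset the fold change was -0.37. In summed libraries, fewer nuclei of a type and less open chromatin per nucleus cannot be told apart.

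Pnoc, the precursor of nociceptin, an opioid-like peptide, lies on chromosome 14 (65400673 to 65425472, minus strand). Its gene body had 56.8 and 57.9 CPM in cortex and 89.3 and 87.0 CPM in hippocampus. The hippocampus libraries stood apart from the cortex libraries by far more than replicates differed. The means were 57.4 ± 0.76 and 88.2 ± 1.60 CPM (SD, n = 2 each), with a log2 fold change of 0.62 ± 0.33 (SE), an unadjusted p of 0.0665 and an adjusted p of 1.0 in edgeR. DESeq2 gave 0.72 with an adjusted p of 0.014. The direction did not hold per covered length, where cortex replicate 2 was highest, at 23.5 CPM per kb of peak against 8.75 to 12.7 in the others, and the fold change with covered length as offset was -0.49.

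Cort, which encodes cortistatin, a relative of somatostatin, lies on chromosome 4 (149125034 to 149126763, minus strand). The values were 36.2 and 36.0 CPM in cortex and 27.2 and 24.1 CPM in hippocampus. The groups did not overlap, at 36.1 ± 0.11 against 25.7 ± 2.17 CPM (SD, n = 2 each). The peak over the gene was 2885 bp long in cortex replicate 1 and 1030 to 1259 bp in the others. Per kb of peak the groups overlapped, at 12.5 and 35.0 CPM in cortex against 21.6 and 19.9 in hippocampus. The log2 fold change was -0.49 ± 0.35 (SE), with an unadjusted p of 0.158 in edgeR. The region over its start also covers an exon of Cenps, so its cut sites cannot be given to 1 of the genes. For each of Sst, Pnoc and Cort the exact permutation test, two-sided, gave p = 0.333, the smallest that 2 against 2 libraries allow.

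The other gene bodies overlapped between the regions or lacked a peak in some library. Npy, a peptide that dampens excitability, had 34.4 and 30.0 CPM in cortex and 28.5 and 32.4 CPM in hippocampus. Cck, encoding cholecystokinin, had 20.6 and 7.09 against 14.5 and 12.2 CPM, and Crh, the corticotropin-releasing hormone, had 21.1 and 10.8 against 11.6 and 16.3 CPM. For Npy, Cck and Crh the spread between libraries of 1 region was wider than the gap between the regions' means. Vip, encoding vasoactive intestinal peptide, had 3.38 and 2.03 CPM in cortex and no peak in either hippocampus library, so no fold change is given. Tac1, the precursor of substance P, had a peak in cortex replicate 1 (13.8 CPM) and hippocampus replicate 1 (8.62 CPM). Penk, the precursor of the enkephalins, had 18.2 CPM in cortex replicate 1, 2.24 and 5.55 CPM in hippocampus and no gene-body peak in cortex replicate 2. The libraries without a Tac1 peak, cortex replicate 2 and hippocampus replicate 2, had the 2 smallest totals of peak length.

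**Figure D1:**
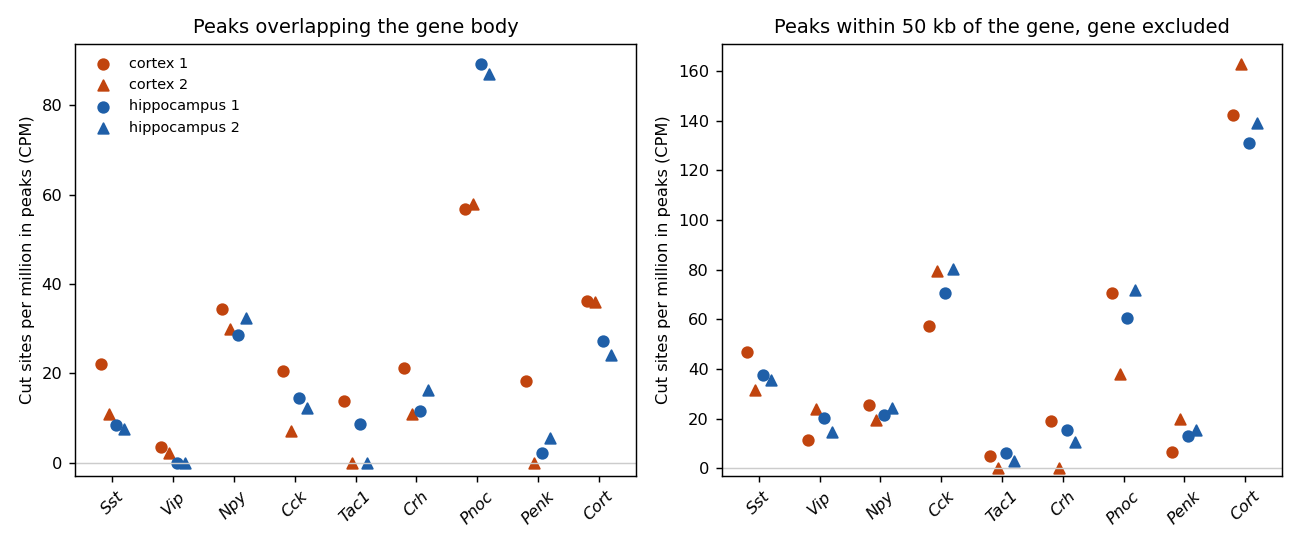
CPM of each gene body (left) and of its 50 kb flanks (right), with a point per library (red cortex, blue hippocampus, circles replicate 1, triangles replicate 2), and points at 0 where no peak was called. In the left panel the cortex points lie above the hippocampus points at Sst and Cort and below them at Pnoc, and Vip has points above 0 in cortex alone.

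Per kb of peak, Cort was highest of the 9 in each library, with 12.5 and 35.0 CPM per kb in cortex and 21.6 and 19.9 in hippocampus. Its peak also covers an exon of Cenps, so this rank cannot be given to Cort alone. The scale depends on the width of the called peaks, as Vip had 32.2 CPM per kb in cortex replicate 2 from 65 cut sites in 63 bp. The remaining genes with peaks changed places between libraries and lay at 5.07 to 10.4 CPM per kb in cortex replicate 1 and 18.3 to 32.2 in cortex replicate 2. All 7 genes with a peak in cortex replicate 2 had their highest level per kb there.

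The flanks differed less. Cort flanks had 142 and 163 CPM in cortex and 131 and 139 CPM in hippocampus, the 1 gene of the 7 with flank peaks in every library whose groups did not overlap. Of 17159 flanks with counts in every library, 10.4% lay above in cortex and 13.1% in hippocampus. The Cort flanks hold the starts of Pex14, Dffa, Cenps and Pgd, and with peaks near other genes left out the log2 fold change turned from -0.18 to 0.35. Sst flanks had 46.9, 31.8, 37.5 and 35.6 CPM in cortex replicates 1 and 2 and hippocampus replicates 1 and 2, and Vip flanks 11.4, 23.9, 20.5 and 14.5 CPM. Vip therefore had cut sites around the gene in hippocampus, at a level within the range of cortex. Npy flanks lay at 19.6 to 25.4 CPM, Cck flanks at 57.4 to 80.3, Pnoc flanks at 37.8 to 71.7 and Penk flanks at 6.53 to 19.8 CPM. edgeR called 0 of the 9 flanks, beside 0.0425% of 18845 tested, and DESeq2 called 0 of them, beside 1.09% of all. Without cortex replicate 1, edgeR called 1 flank, that of Crh, whose flanks had no peak in cortex replicate 2, beside 7.09% of all flanks in that fit.

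Merging the peaks of the 4 libraries gave regions that were set side by side, but each library was counted only in its own peak there. The covered length therefore differed within a region. At the Sst start it was 2983 and 770 bp in cortex and 1068 and 598 bp in hippocampus. With covered length as offset, edgeR called 0 of all 46698 regions with a peak in every library. In the windows of these genes 29 regions had a peak in every library. Of these, 8 were higher in cortex and 3 higher in hippocampus without overlap, while 24.5% and 12.5% of all 46698 such regions were. edgeR called 0 of the 29, beside 0.589% of all, and 3 had an unadjusted p under 0.05. These 3 were singled out after their values were seen. The region over the Sst start (chromosome 16, 23890329 to 23893311) had 22.2 and 17.2 CPM in cortex and 10.5 and 7.55 in hippocampus, with a log2 fold change of -1.13 ± 0.35 (SE), an unadjusted p of 0.00363 and an adjusted p of 0.152. Without cortex replicate 2 it passed, with an adjusted p of 0.0213, as did 4.64% of all common regions in that fit. An intergenic region 37.2 kb upstream of Cck (chromosome 9, 121532416 to 121533300) had 5.45 and 4.09 CPM in cortex and 15.4 and 8.24 in hippocampus. Its fold change was 1.30 ± 0.38 (SE), with an adjusted p of 0.119, and of 0.00818 without cortex replicate 1, where 10.2% of all common regions passed. With covered length as offset it fell to 0.07. A region at an exon of Cenps, 4.69 kb upstream of Cort, had 15.1 and 17.2 CPM in cortex and 9.91 and 7.76 in hippocampus, with an adjusted p of 0.32. The median log2 fold change of all common regions was -0.17 with library totals and -0.02 with TMM scaling.

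By the mean over libraries, the common region with the most cut sites lay at the start of Penk (18.2, 12.3, 9.91 and 15.2 CPM, in the library order used above) and of Pnoc (38.3, 38.7, 52.1 and 55.5), each strongest in all 4 libraries. The Crh and Vip windows held 1 common region each, at the Crh start (21.1, 10.8, 11.6 and 16.3 CPM) and 4.68 kb upstream of Vip (6.05, 8.03, 5.90 and 5.34 CPM). A Vip region 56.5 kb downstream had no peak in cortex replicate 1 and 15.9, 8.16 and 4.65 CPM in the others. Penk had a peak in every library at its start, and that of cortex replicate 2 lay outside the annotated gene body. Sst had its strongest region by CPM 7.64 kb upstream, in intergenic DNA, with 38.9, 25.5, 24.4 and 28.5 CPM. In CPM it lay above the start region in all 4 libraries, and there the brain regions overlapped, unlike at the start. It covered 4048, 1277, 2986 and 2081 bp, against 2983, 770, 1068 and 598 bp at the start. Per covered length the start was the stronger in cortex replicate 2 and hippocampus replicate 1, and the brain regions overlapped at the start as well. At Npy a region 5.13 kb upstream had 15.6 and 19.6 CPM in cortex and 20.7 and 24.5 in hippocampus, and the region of its start 24.6 and 20.2 against 14.6 and 19.5 CPM. The start was the stronger of the 2 in both cortex libraries and the upstream region in both hippocampus libraries. In CPM the 2 Npy regions thus stood in opposite order between the brain regions, neither past the test. These values were not scaled to covered length, which at the Npy start was 2633 and 843 bp in cortex and 1997 and 1859 bp in hippocampus. At the upstream region it was 1008 and 761 bp in cortex and 929 and 939 bp in hippocampus. Per covered length the upstream region was the stronger in each library, so the opposite order did not hold. In the Cck window the highest mean lay 18.9 kb downstream of the start, with 18.5, 17.7, 14.2 and 20.2 CPM, although the start region was higher in cortex replicate 1 (19.4 CPM) and the region 37.2 kb upstream in hippocampus replicate 1 (15.4 CPM). In the Cort window it lay at an exon of Pgd, with 32.9, 43.5, 27.3 and 38.0 CPM, below the start region in cortex replicate 1 (36.2 CPM). Tac1 had no region with a peak in every library.

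**Figure D2:**
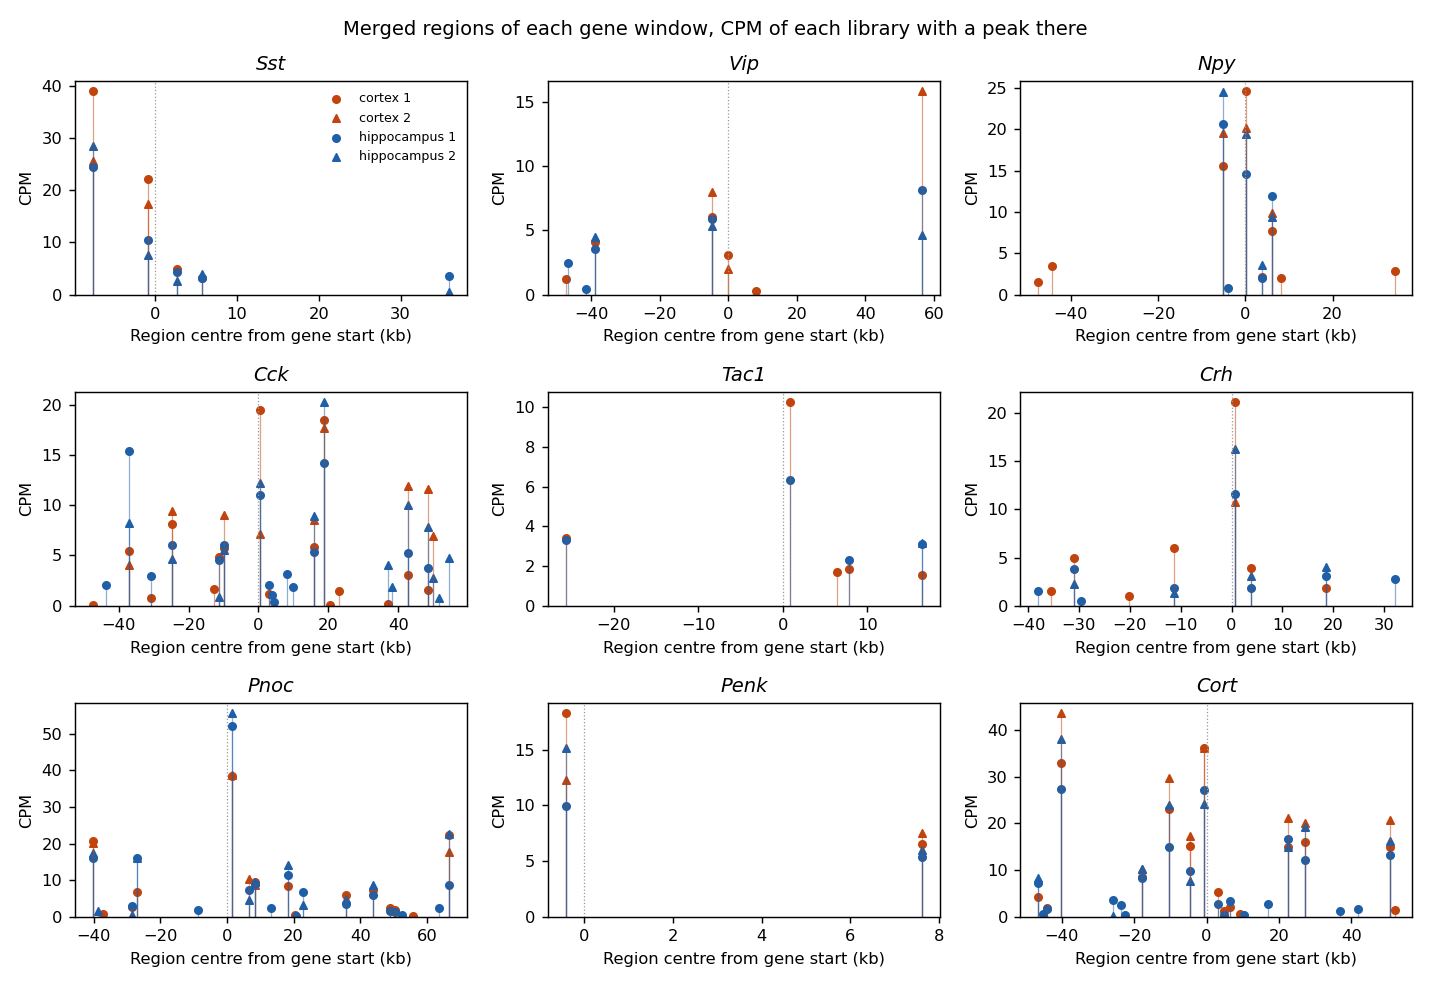
Each panel is a gene; each point is a merged region at its distance in kb from the gene start (negative is upstream) and its CPM in a library with a peak there (red cortex, blue hippocampus, circles replicate 1, triangles replicate 2). By CPM, not scaled to covered length, Sst is led by the region 7.64 kb upstream and Pnoc by the region at its start. The Vip start holds points from cortex alone.

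To see which nuclei carried the open genes, nuclei were clustered in each library on peaks outside these windows and clusters were named from 8 MGE and 8 CGE marker genes. MGE-like nuclei made up 57.8% and 61.3% of the cortex libraries and 46.0% and 44.6% of the hippocampus libraries, and CGE-like nuclei 27.0% and 34.1% against 18.1% and 23.1%. Clusters left unnamed held 10.8% and 4.61% of nuclei in cortex and 34.5% and 20.1% in hippocampus. The CGE-like shares overlapped at resolution 0.5 (27.0% and 33.9% against 23.7% and 27.1%) and at resolution 2 (23.7% and 24.2% against 23.7% and 27.3%). Sst, Cort and Tac1 were more open in MGE-like nuclei in each library with a peak, and Vip, Pnoc, Penk and Cck in CGE-like nuclei. The comparison is a description, since nuclei of 1 library are not replicates.

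Sst bodies had 25.7, 15.6, 13.2 and 13.4 CPM in MGE-like nuclei and 6.56, 1.65, 1.87 and 1.30 CPM in CGE-like nuclei of cortex replicates 1 and 2 and hippocampus replicates 1 and 2. MGE-like values were above CGE-like ones everywhere, and the log2 ratio, with 2 CPM added to each value, was 2.04 ± 0.26 (SD, n = 4 libraries). Cort bodies had 42.3, 41.6, 34.4 and 31.5 CPM in MGE-like and 22.2, 26.2, 11.1 and 9.45 CPM in CGE-like nuclei, a log2 ratio of 1.13 ± 0.45 (SD, n = 4). Sst and Cort are the 2 of the 6 genes with values in every library that had a mean ratio of at least 1 and a ratio above 0 in each, as did 0.379% of 14525 gene bodies. None of the 6 was at -1 or below, as 0.496% were. Vip bodies had 1.18 and 0.56 CPM in MGE-like against 9.60 and 5.47 CPM in CGE-like nuclei of cortex, a log2 ratio of -1.70 ± 0.23 (SD, n = 2).

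The other genes were less divided. Pnoc had 46.4, 47.7, 74.6 and 75.1 CPM in MGE-like and 91.3, 83.2, 117 and 115 CPM in CGE-like nuclei, a log2 ratio of -0.74 ± 0.16 (SD, n = 4). It was thus open in each class, and more so in CGE-like nuclei of each library. Penk had a log2 ratio of -0.74 ± 0.34 (n = 3), Cck of -0.56 ± 0.38 (n = 4) and Tac1 of 0.31 ± 0.06 (n = 2). Npy had log2 ratios of -0.98 and -1.16 in cortex and -0.30 and 0.20 in hippocampus. With coarser or finer clusters (resolution 0.5 or 2) all 4 Npy ratios were below 0, the highest being -0.05 and -0.06. Crh was mixed at each resolution, with -0.82, -0.17, -0.15 and 0.01 at resolution 1. The flanks followed the gene at Sst (0.90 ± 0.10, n = 4) and at Tac1 (0.96 ± 0.28, n = 3), but not at Vip (0.00 ± 0.18, n = 4) or Pnoc (0.22 ± 0.21, n = 4).

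**Figure D3:**
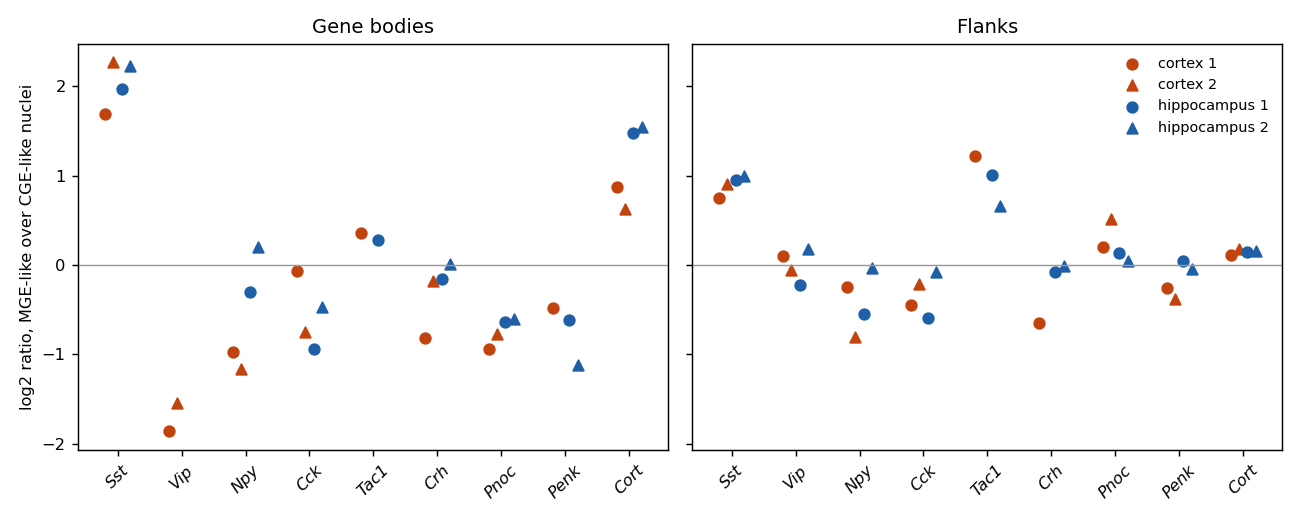
The log2 ratio of CPM in MGE-like over CGE-like nuclei for gene bodies (left) and flanks (right), with a point per library (red cortex, blue hippocampus, circles replicate 1, triangles replicate 2). Sst and Cort bodies lie above 0 and Vip and Pnoc bodies below 0 in each library with a value, while Npy and Crh bodies straddle 0 at the resolution shown, Npy lying below 0 at resolutions 0.5 and 2.

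Within MGE-like nuclei Cort had 42.3 and 41.6 CPM in cortex against 34.4 and 31.5 in hippocampus, and within CGE-like nuclei 22.2 and 26.2 against 11.1 and 9.45. In CPM the brain regions thus did not overlap in either class. These values were not scaled to covered length, and per kb of peak Cort overlapped over whole libraries. The clusters highest in neurogliaform markers were named CGE-like in cortex and left unnamed in hippocampus, so the CGE-like groups were not alike. At resolution 0.5 Cort had 22.2 and 26.2 against 13.8 and 11.3 CPM within CGE-like nuclei. Sst was less steady. Within MGE-like nuclei it had 25.7 and 15.6 CPM in cortex and 13.2 and 13.4 in hippocampus, but with finer clusters (resolution 2) the values were 26.5 and 11.8 against 12.3 and 13.1 and the regions overlapped. Within CGE-like nuclei the Sst values, 6.56 and 1.65 against 1.87 and 1.30 CPM, overlapped as well. Pnoc was higher in hippocampus within MGE-like nuclei and within CGE-like nuclei. Clusters low in pan-GABA markers had 0.78 to 4.41 CPM for Sst, 3.78 to 8.70 for Cort and 17.2 to 35.0 for Pnoc. For Cort and Pnoc these were below both classes of the same library, and for Sst below MGE-like nuclei, while in hippocampus replicate 1 they were above CGE-like nuclei (4.41 against 1.87 CPM). Over whole libraries the 9 oligodendrocyte-lineage markers, 4 of which had a peak in every library, summed to 254 to 315 CPM in cortex and 300.3 to 310.2 CPM in hippocampus. Without these clusters the log2 fold changes of the whole libraries were -1.02 for Sst, -0.45 for Cort and 0.66 for Pnoc.

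At resolution 1, single clusters were more sharply divided at Sst and Vip. Sst was highest in an MGE-like cluster of each library, with 57.5 and 36.0 CPM in cortex and 22.7 and 21.2 in hippocampus, which were 4.69 to 10.6 times the median cluster. Vip was highest in a CGE-like cluster, with 19.5 CPM over 190 nuclei of cortex replicate 1 and 9.27 CPM over 814 nuclei of cortex replicate 2, at 13.9 and 16.5 times the median cluster. Cort was highest in MGE-like clusters of all 4 libraries (41.3 to 50.3 CPM) and Crh in CGE-like clusters of all 4 (14.4 to 45.6 CPM). The Crh values were only 1.41 to 2.50 times the median cluster. At other resolutions the highest Crh cluster was MGE-like in hippocampus replicate 2 (resolution 0.5) and in hippocampus replicate 1 (resolution 2). Penk was highest in CGE-like clusters of the 3 libraries with a peak. Npy reached 82.5 and 101 CPM in cluster 3 of each cortex library and 53.1 and 55.7 CPM in cluster 8 of each hippocampus library. Rnase10, Myh1 and Col4a4 were among the leading genes of all 4, and their scores over 7 neurogliaform markers such as Lamp5 were alike, at 0.40, 0.42, 0.48 and 0.59. Their CGE scores were 0.42, 0.39, 0.09 and 0.03, so the naming rule called the cortex clusters CGE-like and left the hippocampus clusters unnamed. Pnoc was highest in CGE-like clusters except in hippocampus replicate 1, where cluster 8, the Npy-rich one, led with 137 CPM. In cortex replicate 2 the Npy-rich cluster 3 led for Pnoc as well, with 92.1 CPM, so these 2 libraries differ here by the cluster name. Tac1 was highest in an MGE-like cluster of cortex replicate 1 (29.0 CPM). In hippocampus replicate 1 its highest value was in 78 oligodendrocyte-lineage-like nuclei, at 15.9 CPM against a median cluster of 7.90 CPM. These nuclei had a median of 4582 cut sites each, so the value rests on few cut sites at Tac1. Sst and Cort peaked in different MGE-like clusters of each library.

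**Figure D4:**
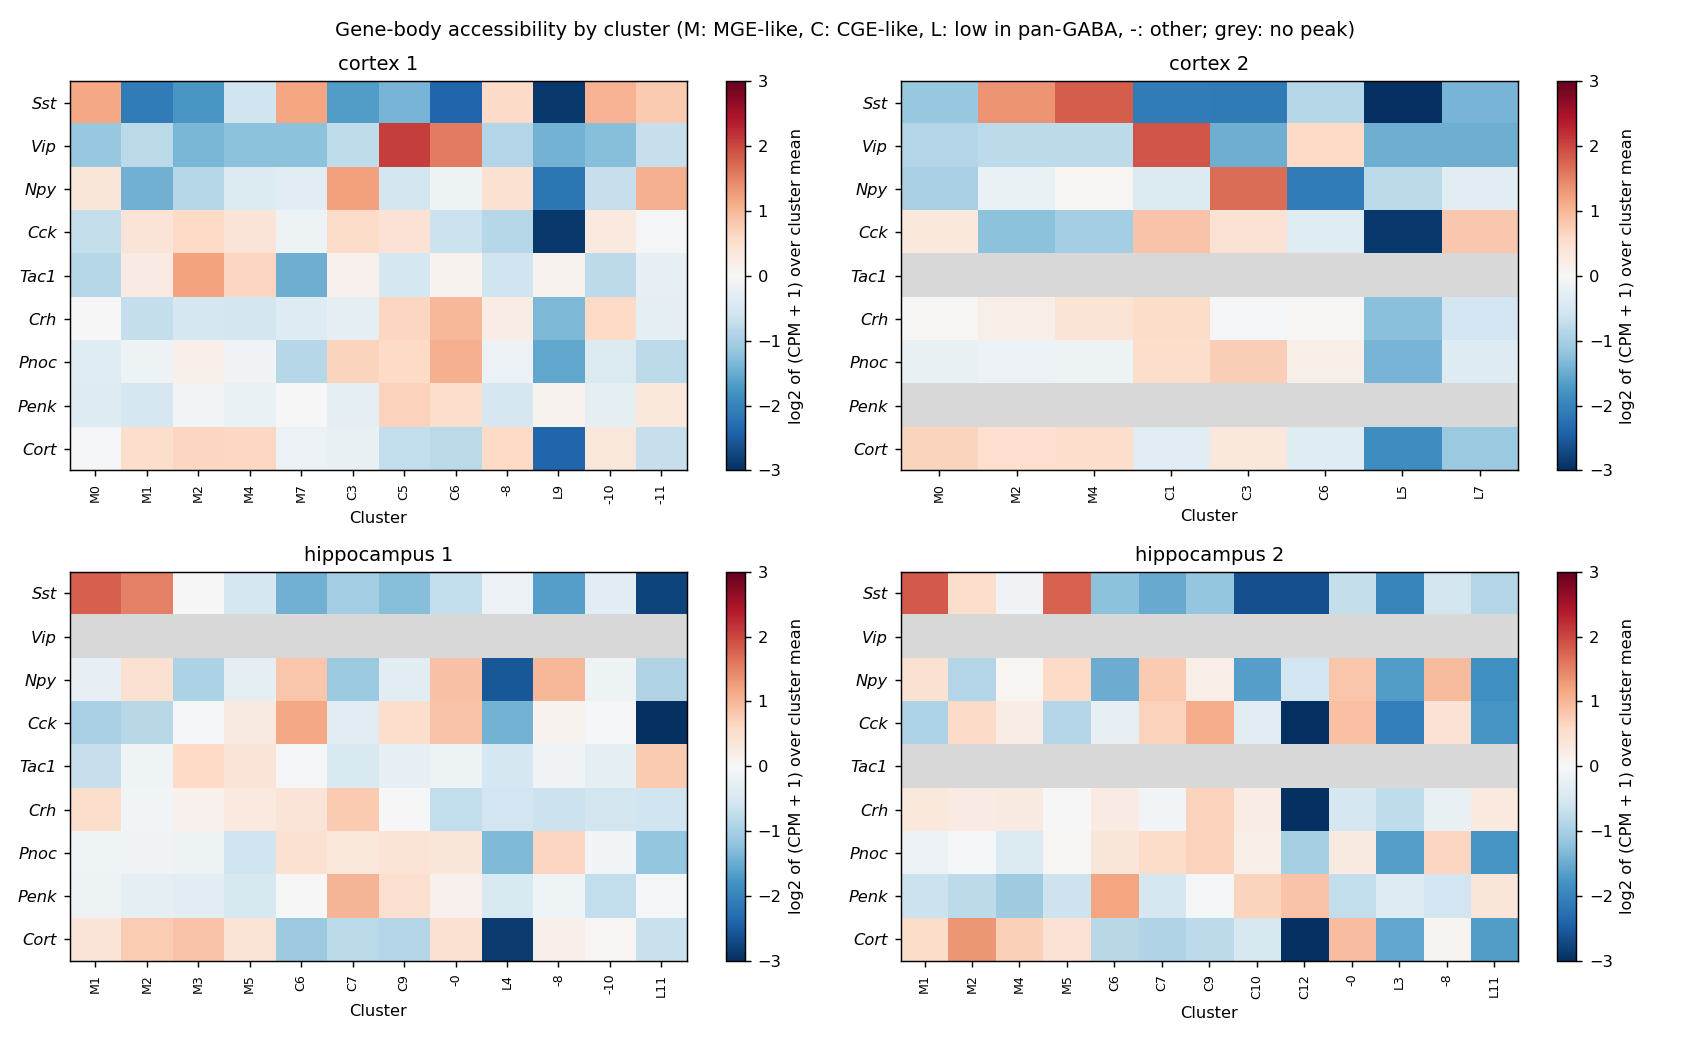
Gene bodies (rows) by cluster (columns) in each library, coloured by the log2 of CPM plus 1 over its average across clusters, with M for MGE-like, C for CGE-like and L for clusters low in pan-GABA markers. Sst is red in MGE-like columns of each library, Vip in CGE-like columns of cortex, and grey rows had no peak.

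At full depth the number of peptide genes open in the same nucleus rose with library depth. The genes with a body peak, which set its upper limit, numbered 9, 7, 8 and 7 in cortex replicates 1 and 2 and hippocampus replicates 1 and 2. A nucleus counted as open at a gene with 1 or more cut sites in the peaks over its body. At full depth 84.2% of nuclei of cortex replicate 1 were open at 2 or more of the genes, and 11.98%, 27.9% and 31.0% in cortex replicate 2 and hippocampus replicates 1 and 2. With each nucleus thinned to 3000 cut sites, which left out 0, 414, 381 and 67 nuclei, the shares were 11.2%, 4.53%, 6.24% and 5.71%. Cortex replicate 1 thus stayed highest at equal depth. Between 52.4% and 69.7% of thinned nuclei had none of the peptide genes open. Pnoc was open in the largest share of nuclei, with 62.6%, 20.7%, 39.6% and 42.9% unthinned and 15.2%, 12.9%, 19.9% and 17.9% thinned. Shares were not scaled to covered length, and the peaks over Pnoc covered 2462 to 8616 bp against 463 to 2983 bp for Sst. The ranking therefore does not compare genes at equal length. The exact 95% intervals of the thinned Pnoc shares were 13.7% to 16.7%, 11.9% to 14.0%, 18.8% to 21.0% and 16.6% to 19.3%. In thinned nuclei of clusters low in pan-GABA markers the Pnoc share was 3.85% to 6.96%. The shares of Sst were 30.9%, 4.37%, 5.42% and 5.62% unthinned and 5.22%, 2.67%, 1.89% and 1.64% thinned, with intervals of 4.36% to 6.20%, 2.18% to 3.24%, 1.53% to 2.29% and 1.22% to 2.15%. In the low clusters Sst was open in 1 of 104, 0 of 115, 2 of 474 and 0 of 381 thinned nuclei, and the 0 counts allow shares of up to 2.61% and 0.787%.

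Pairs of genes were therefore compared within strata of depth, as the odds of a nucleus open at 1 gene being open at the other. Of 36 pairs, 3 were open together (mean log2 odds ratio of at least 0.5 and above 0 in each library with a value), 3 were open apart by the mirrored rule and 30 were neither. Vip was a member of 4 of these 6 pairs. A library gave a value only where at least 10 nuclei were expected in every cell of the comparison, so most Vip pairs rest on cortex replicate 1 alone.

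Sst was open apart from Cck, with log2 odds ratios of -0.68 in cortex replicate 1 and -0.83 and -0.80 in hippocampus replicates 1 and 2 (mean -0.77 ± 0.08, SD, n = 3). It was open apart from Tac1 as well, at -1.01 and -1.32 in replicate 1 of cortex and hippocampus (-1.17 ± 0.22, n = 2). Of 13096 genes with a value against Sst in all 4 libraries, 1.04% were open apart from it and 1.74% together with it. The pairs with Cck and Tac1 rest on 3 and 2 libraries, a looser rule, so these shares are not a like background for them. Within MGE-like nuclei alone the value was -0.62 for Sst with Cck and -1.36 for Sst with Tac1, so the separation was also seen inside that class. Without depth strata they were -0.25 and -0.68.

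Vip was open together with Pnoc, at 1.07 and 0.64 in cortex replicates 1 and 2 (0.85 ± 0.30, SD, n = 2). It was open together with Crh at 1.37 and with Penk at 0.50, and apart from Cort at -0.85, each in cortex replicate 1. Of 6340 genes with a value against Vip in both cortex libraries, 8.45% were open together with it and 7.07% apart from it. The pairs of Vip with Crh, Penk and Cort have a value in 1 library, so these shares are not a like background for them. Within CGE-like nuclei the value for Vip with Crh was 1.14, and within MGE-like nuclei 1.28. Vip with Pnoc was at 0.04 within CGE-like nuclei, the mean of -0.32 and 0.40 in the cortex libraries, and 1.82 within MGE-like nuclei of cortex replicate 1. Vip with Cort was at -0.12 within CGE-like and -0.17 within MGE-like nuclei. Vip with Penk lay at the threshold of 0.5, and was 0.29 with at least 2 cut sites per gene, 0.35 with the region of the gene start, 0.47 within CGE-like and -0.02 within MGE-like nuclei, none of which passes it.

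Among the 30 remaining pairs some had the same sign in each library. Npy and Pnoc stood at 0.16, 0.29, 0.23 and 0.31 in the library order above (0.25 ± 0.07, SD, n = 4), Sst and Crh at 0.38, 0.33, 0.01 and 0.45 (0.29 ± 0.20) and Sst and Pnoc at -0.62, -0.38, -0.26 and -0.05 (-0.33 ± 0.24). Penk and Cort were at -0.31, -0.54 and -0.46 in the 3 libraries with a value (-0.44 ± 0.11). Sst and Cort, both higher in MGE-like nuclei, were near 0, at -0.28, -0.05, 0.09 and 0.10 (-0.03 ± 0.18, n = 4). Sst and Vip could be compared in cortex replicate 1, at -0.46.

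**Figure D5:**
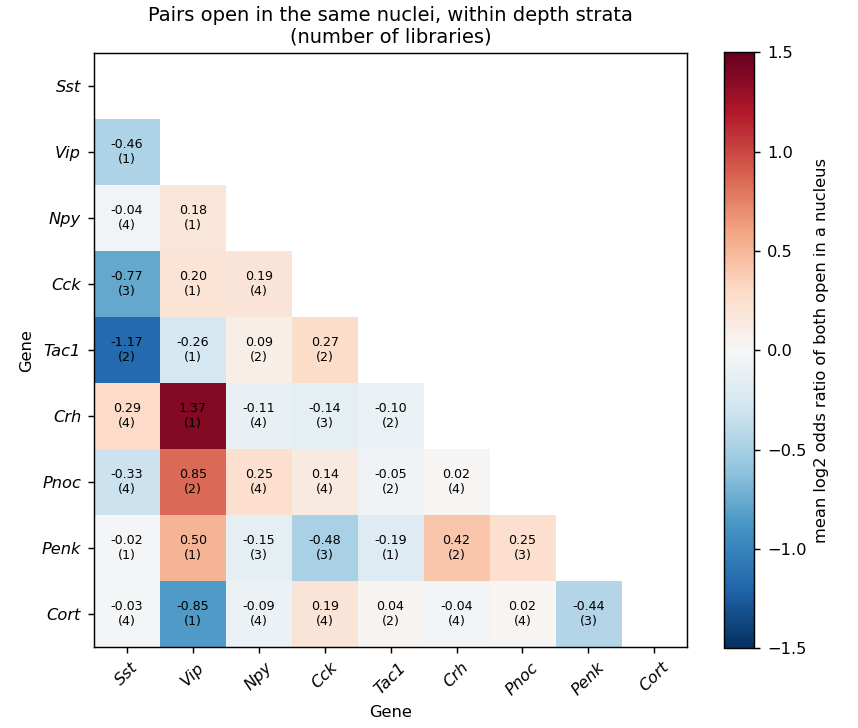
Mean log2 odds ratio of 2 gene bodies being open in the same nucleus, within strata of depth, with the number of libraries in brackets; red is together and blue apart. Vip with Crh (1.37) and Vip with Pnoc (0.85) are the reddest cells, and Sst with Tac1 (-1.17) the bluest.

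A few genes of the marker lists, and Crhbp, Vipr1 and Cartpt from the receptor and peptide lists, are named here for their values with the peptide genes. Sst was open together with Reln, at 1.37, 1.08, 0.76 and 1.12 (1.08 ± 0.25, SD, n = 4), with Crhbp, which binds the peptide of Crh (0.75 ± 0.25, n = 4), and with Lhx6, a factor that specifies MGE interneurons (0.81 ± 0.64, n = 4). It was open apart from Pvalb (-0.67 ± 0.26) and from Prox1, a CGE factor (-0.78 ± 0.26, n = 4 each). Vip was open together with Vipr1, a receptor for its own peptide (0.84 and 0.86 in the cortex libraries), and apart from Sox6, an MGE factor (-1.48 and -1.76). Npy went with Lamp5, a marker of neurogliaform cells, at 0.44, 0.61, 0.42 and 0.74 (0.55 ± 0.15, n = 4). Tac1 went with Pvalb, at 0.87 and 0.32, and Cort with Lhx6 (0.64 ± 0.53, n = 4) and with Cartpt, another peptide gene (0.77 ± 0.15, n = 3). These pairs were chosen after their values were seen, and the other genes of the lists are not given. Lhx6 and Pvalb are both MGE markers here, yet their means with Sst had opposite signs, and Reln is a neurogliaform marker here. By the rule for pairs, 1.74% of genes were open together with Sst, 8.45% with Vip, 0.396% with Npy, 0.813% with Tac1 and 0.488% with Cort. Open apart were 1.04% from Sst and 7.07% from Vip.

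The genes most alike to each peptide gene by this measure, taken over all protein-coding genes, were mostly long genes open in most nuclei. They were Utrn, Mad1l1 and Cacna2d3 for Sst, Disc1, Sez6 and Sorcs3 for Vip, Grin2b, Shank2 and Syt1 for Npy, Mtus2, Osbpl3 and Rimbp2 for Cck, and Sipa1l2, Sox5 and Mef2c for Tac1. For Crh they were Grin2b, Kcnmb2 and Pitpnm2, for Pnoc Grin2b, Kalrn and Myo3b, for Penk Rnf43, Tcf20 and Zmat4, and for Cort Cacna1a, Grin2b and Etl4. Grin2b, 460 kb long and open in 59.2% to 97.0% of nuclei, was named for 4 of the 9. Its value with Npy was 2.72 in cortex replicate 1 and 0.22 to 0.77 in the others, and that of Utrn with Sst 3.68 against 0.45 to 1.04. The values of steadier pairs were 1.76 and 1.97 for Sez6 with Vip (1.87 ± 0.15, n = 2 libraries) and 0.74, 0.69 and 0.59 for Tcf20 with Penk (0.68 ± 0.08, n = 3).

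No gene of peptide handling passed the test between the brain regions. Of 12 genes for peptide processing and dense-core vesicles all were tested and 0 were called, with a median log2 fold change of -0.09 against -0.10 over all 16024 gene bodies tested. Of 22 genes for the receptors and the binding protein 20 were tested, 0 were called and the median was -0.18. Of 16 other neuropeptide genes 11 were tested, 0 were called and the median was -0.18. Among receptors, 7 of 18 genes with counts in every library (38.9%) were higher in cortex and 3 (16.7%) higher in hippocampus without overlap. Of other neuropeptide genes 4 of 9 (44.4%) were higher in cortex and 0 in hippocampus, and of processing genes 1 of 12 (8.33%) in each direction, beside 12.3% and 9.28% over all gene bodies. The 2 smallest p in each direction belonged to receptor genes. Vipr1 had 64.9 and 68.1 CPM in cortex and 38.0 and 34.1 in hippocampus, a log2 fold change of -0.88 ± 0.34 (SE), unadjusted p 0.0119 and adjusted p 1.0 in edgeR. Sstr4, a somatostatin receptor, had 45.4 and 58.7 against 24.1 and 39.4 CPM (-0.71 ± 0.35, unadjusted p 0.0419 in edgeR). Oprl1, the nociceptin receptor, had 23.7 and 22.8 against 41.9 and 32.0 CPM (0.67 ± 0.35, unadjusted p 0.0588 in edgeR), and Oprm1, the mu opioid receptor, 69.1 and 69.5 against 120 and 89.6 CPM (0.60 ± 0.32, unadjusted p 0.0671 in edgeR). DESeq2 called Vipr1, with an adjusted p of 0.0219. Oprl1 and Oprm1 changed sign with covered length as offset, to -0.63 and -0.23.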

How the data were processed

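Per the submitters' processing notes the files were made with Cell Ranger ATAC 1.2.0 on GRCm38 (mm10). For each of 4 libraries the authors deposited whole-number counts of cut sites per peak and nucleus, not normalized, with peaks called in each library apart. Deposited motif matrices were not used here. The 9 genes and the lists were chosen with earlier results of these data known. GENCODE M21 gene bodies and 50 kb flanks were overlapped with peaks (at least 1 bp), and counts were summed per library. edgeR 4.0.16 (quasi-likelihood test, filterByExpr, library totals, prior count 2, no block; SE from the fold change and F) in R 4.3.3 was fitted over all genes or all 46698 common regions, with DESeq2 1.42.0 as an alternative, and tested on simulated data. Values of 1 gene were also compared by exact permutation test, two-sided. Nuclei were clustered in each library (40 components, 20 neighbours, leidenalg 0.10.2 at resolution 1); doublets were not called. A cluster was low in pan-GABA under a mean log2 ratio of -1, and it was called MGE-like or CGE-like from a marker score over 0.1 that led the other by 0.3, with 3 or more markers raised. Co-openness was a Mantel-Haenszel odds ratio over 10 depth strata, with at least 10 nuclei expected in all cells of the table, a stricter rule than the joint count first planned. Named genes were the 9 members, for each the 3 most alike genes at least 1 Mb away, the strongest common region of each window and the listed pathway genes with the smallest p. Exact Clopper-Pearson 95% intervals of shares of nuclei cover counting error only.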

Additional observations from a re-analysis of the deposited data

Results flagged for a closer look

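Sst and Cort gave log2 odds ratios of being open in the same nuclei that were below 0 in both cortex libraries (-0.28 and -0.05, mean -0.17) and above 0 in both hippocampus libraries (0.09 and 0.10). The pair is given because every library of a brain region went the opposite way to those of the other, and the difference was not tested. Its values were near 0, and it was not the only pair to separate the brain regions. Cck with Pnoc had 0.27 and 0.29 in cortex against -0.05 and 0.03 in hippocampus. Groups of 2 libraries were too small to look for single libraries far from the rest.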

How the results depend on the processing

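Cortex replicate 1 and the covered peak length limit these results most. For gene bodies the number called over all genes was 7, and became 0 with TMM, 159 with DESeq2, 23 with no filter on low counts, 0 with the replicate block, 2 without nuclei low in pan-GABA, 31 in common regions only and 0 with covered length as offset. For flanks it was 8, and became 0, 206, 26, 0, 3, 56 and 0 under the same settings, and 0 with flanks of 10 kb or with peaks away from other genes. For common regions it was 275, and 0 with TMM, the replicate block or covered length, the last chosen after seeing the data. Leaving out each library gave 7 to 754 bodies, 1 to 1354 flanks and 35 to 4741 regions, the highest without cortex replicate 1. Of the 9 genes DESeq2 called 1 body, and leaving out each library called 0 to 1 flanks and 0 to 1 common regions. Of the listed pathway genes DESeq2 called 1, common regions only gave 1, and leaving out each library gave 0 to 2. The replicate numbers did not pair the libraries (correlation of deviations -0.00 for bodies, 0.15 for flanks and -0.03 for regions), and no member was called with the replicate block. Signs reversed with covered length as offset for Pnoc (-0.49), its start region (-0.29), Oprl1 (-0.63) and Oprm1 (-0.23), and for Cort flanks away from other genes (0.35). Pairs open together numbered 3, and became 0 in flanks, 14 with no depth strata, 0 when thinned and 5 within MGE-like nuclei. Pairs open apart numbered 3, and became 0 in flanks, 5 without the deepest 5% of nuclei and 5 without nuclei low in pan-GABA. In flanks the values of Vip with Crh (-0.0709), Pnoc (-0.001005) and Penk (-0.0179) reversed, as did Vip with Penk within MGE-like nuclei (-0.0152). The number of genes whose highest cluster had the same name in each library was 5, and 2 at resolution 2. The number higher in CGE-like nuclei in each library was 4, and 5 at resolutions 0.5 and 2, where Npy joined. The causes were not tested.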
